A study of Mus musculus with 20 samples.

Results

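Brown adipose tissue (BAT) of mice that lost Alpha4 (α4) in their adipocytes was compared with BAT of Control mice by RNA-seq. This comparison took in 10 of the 20 libraries of the series, 5 from Ai-α4KO and 5 from Control male mice, chosen by their tissue label. The remaining libraries came from inguinal white adipose tissue (iWAT) of the same design and are used here only where the response of BAT is set beside that of iWAT. Ai-α4KO mice carried floxed alleles of the α4 gene and a tamoxifen-inducible CreERT2 driven by the Adiponectin promoter, which is active in adipocytes and not in the other cells of the tissue. Control mice carried the floxed alleles without the Cre transgene, although the sample labels call their genotype WT. All mice, on a mixed C57Bl/6 background, received 100 mg/kg tamoxifen intraperitoneally 5 times over 6 days from 2 months of age, so the Control libraries carry the treatment as well. Tissue was taken 1 week after recombination and sequenced whole. In such bulk RNA, fewer cells of a type and less RNA per cell cannot be told apart. The labels number the libraries within each group without saying that each came from its own mouse, so the p-values measure the spread between these libraries.

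Brown adipocytes burn fatty acids and glucose in densely packed mitochondria, and uncoupling protein 1 (UCP1) in the inner mitochondrial membrane releases the energy as heat when noradrenaline from sympathetic nerves reaches the β3-adrenergic receptor. α4, encoded by Igbp1, binds the catalytic subunits of protein phosphatase 2A (PP2A) and its relatives PP4 and PP6 and keeps them stable while they are not yet bound to partner subunits. PP2A removes phosphate from serine and threonine residues of many proteins, those of the insulin pathway among them, and the comparison asked which genes respond in brown fat when adipocytes lose its binding partner.

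Gene levels are given as CPM, counts per 1000000 of the library total after TMM scaling, and lists of 5 values run from replicate 1 to replicate 5 of a group. A gene rose or fell here when edgeR's quasi-likelihood test gave a Benjamini-Hochberg adjusted p below 0.01 and the fold change was at least 2. Levels in CPM depend on transcript length, so genes are compared with one another only in FPKM, where the count is divided by length.

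The deleted gene was measured first. Igbp1, which spans bases 100494291 to 100516125 of chromosome X by the deposited annotation, was at 86.3, 97.6, 92.8, 88.8 and 82.6 CPM in the Control libraries and at 13.1, 13.2, 16.5, 23.3 and 12.9 CPM in the Ai-α4KO libraries. The groups did not overlap, and Ai-α4KO replicate 4 held the most of the remaining transcript. Igbp1 fell by 2.504 on the log2 scale (± 0.17 SE, adjusted p = 2.2e-07), and the difference of 73.8 CPM had p = 0.0079 in an exact two-sided permutation test (252 arrangements), the smallest value this design allows. The sequenced tissue also held cells other than adipocytes, and the source of the remaining transcript was not tested. Igbp1b, a related gene whose copies could share reads with Igbp1, had no count in any BAT library. The tissue label was checked against brown adipocyte markers: Control libraries held Ucp1 at a mean of 5021 CPM, Cidea at 3261 CPM and Adipoq, which encodes adiponectin, at 2174 CPM. The libraries held 24023371 to 34274184 expected counts, and PC1 of the log2 CPM values, with 75.9% of the variance, separated the 5 Control from the 5 Ai-α4KO libraries.

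Of 14344 genes with enough counts to test, 31.5% passed the threshold, 18.2% as higher and 13.3% as lower in Ai-α4KO. These were 2614 and 1910 genes, and the list counts below are to be read against these shares. For 47.7% of tested genes the 2 groups of libraries did not overlap at all, and the median log2 fold change over all tested genes was -0.03. The share of calls in each direction varied with the count level in CPM, which also depends on transcript length. Among genes with a mean under 1 CPM, 25% rose and 9.6% fell, whereas among the 123 genes over 1000 CPM, 14.6% rose and 52.0% fell. Summed together, the 1910 genes that fell took 436603 to 511094 CPM in Control libraries, with a mean of 462499, and 116086 to 151657 CPM in Ai-α4KO, with a mean of 136701. The 2574 genes outside the muscle lists that rose went from a mean of 43496 CPM to a mean of 169493 CPM. These sums describe genes picked for their difference and are not a test of it. When genes that take up a large share of a library fall, the scaling decides where the remaining genes stand: without the TMM factors the median of all genes moved up by 0.263 on the log2 scale, 72.0% of the calls were then higher against 57.8% with them, and the number of genes that fell was 1265.

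**Figure D1:**
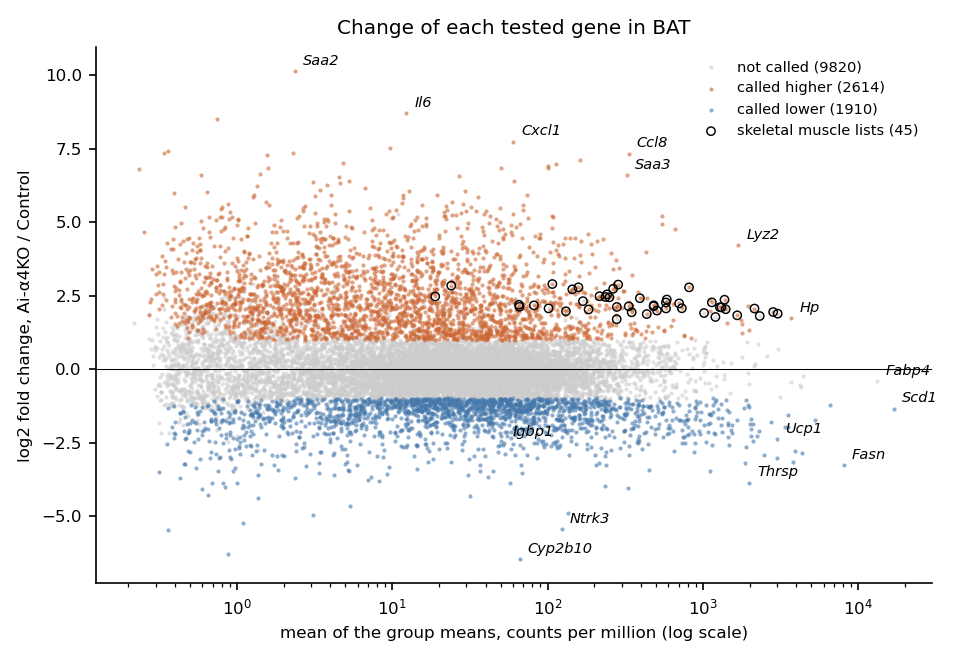
Log2 fold change of each tested gene in BAT (Ai-α4KO over Control, vertical axis) against the mean of the group means in CPM (horizontal axis, log scale). Of the 14344 points, 2614 are called higher and 1910 lower, and black rings mark the 45 genes of the skeletal muscle fibre lists. Fasn, Scd1 and Thrsp fall at the high end of the CPM axis, while Il6, Saa2 and Cxcl1 rise from levels near 0.

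The thermogenic programme fell unevenly. Of 28 brown fat and thermogenic genes tested, 18 fell, 2 rose and 8 did not pass, with a median log2 fold change of -1.87 against -0.03 over all genes. Ucp1 was at 6360.2, 5531, 5099.7, 3929 and 4185 CPM in Control libraries and at 644, 613, 716, 1294 and 1535 CPM in Ai-α4KO libraries. No Ai-α4KO library reached the lowest Control value, with a log2 fold change of -2.39 ± 0.29 SE, adjusted p = 1.9e-05. Cidea, a lipid droplet protein abundant in brown fat, went from 4047, 2670.2, 3509, 2876 and 3201 CPM to 446, 397, 411, 498 and 849.6 CPM. It fell by 2.65 on the log2 scale (± 0.23 SE, adjusted p = 1.5e-06), with Ai-α4KO replicate 5 above the others of its group. Kcnk3, a potassium channel of brown adipocytes, stood at 445, 308, 447, 373 and 516 CPM in Control and at 56.4, 42.1, 38.4, 61.5 and 72.3 CPM in Ai-α4KO. Its groups were far apart, with a log2 fold change of -2.95 ± 0.21 SE, adjusted p = 2.8e-07. The largest fall in the list was that of Ntrk3, a neurotrophin receptor, from 308, 224, 273, 236 and 165 CPM to 9.68, 1.27, 2.45, 6.99 and 6.89 CPM. Ntrk3 had a log2 fold change of -5.46 ± 0.50 SE, adjusted p = 2.0e-06. The transcription factors Prdm16 (-1.65), Ebf2 (-2.06) and Lhx8 (-1.51), which define the brown fat lineage, fell as well (log2 fold changes), although Lhx8 just missed the threshold without Ai-α4KO replicate 5 (-1.48, adjusted p = 0.010).

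The 2 coactivators of mitochondrial biogenesis in the list separated. Ppargc1b, encoding PGC-1β, was at 50.3, 35.0, 66.7, 41.5 and 50.9 CPM in Control and at 9.31, 5.41, 3.69, 9.01 and 8.88 CPM in Ai-α4KO. It fell by 2.75 on the log2 scale (± 0.27 SE, adjusted p = 3.4e-06). Ppargc1a, encoding PGC-1α, was at 66.8, 53.3, 95.7, 43.4 and 97.9 CPM in Control and 74.3, 81.6, 53.7, 75.6 and 37.4 CPM in Ai-α4KO, and the groups overlapped throughout. Its log2 fold change was -0.15 ± 0.26 SE (adjusted p = 0.64). Dio2, the deiodinase that makes active thyroid hormone inside the brown adipocyte, also overlapped, at 152, 105, 131, 30.4 and 99.0 CPM in Control and 168, 185, 101, 88.7 and 140.3 CPM in Ai-α4KO. Dio2 had a log2 fold change of 0.40 ± 0.35 SE, adjusted p = 0.34. Elovl3, a fatty acid elongase induced by cold, had a log2 fold change of 0.36 and Bmp8b, a growth factor made by brown fat, 0.50, neither past the threshold. The 2 genes that rose were Gyk, described with glycerol below, and Tmem26, a beige fat surface marker, from 0.173 to 1.10 CPM.

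Some thermogenic genes are also expressed in muscle, and these need the muscle values beside them. Cox8b, a cytochrome oxidase subunit of brown fat, heart and muscle, was at 946, 617, 719, 696 and 571 CPM in Control libraries and at 139.6, 120.3, 406, 414 and 475 CPM in Ai-α4KO libraries. The groups did not overlap, yet the log2 fold change of -1.19 ± 0.36 SE missed the threshold (adjusted p = 0.012), and within Ai-α4KO replicates 1 and 2 lay well below the other 3. It passed without Ai-α4KO replicate 5 (-1.40), and was -2.27 with Control replicate 1 and Ai-α4KO replicates 3, 4 and 5 left out together. The same replicates 1 and 2 had the lowest summed level of fast fibre genes in their group (18176, 20570.1, 34844, 61761 and 35448 CPM over the 5 replicates). Cox7a1, a second subunit with this distribution, had a log2 fold change of -1.084 and passed without Ai-α4KO replicate 4 (-1.16) or 5 (-1.28). Fabp3, the fatty acid binding protein of heart and muscle, had -0.01 and did not pass. The part of muscle RNA in these values was not tested gene by gene.

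**Figure D2:**
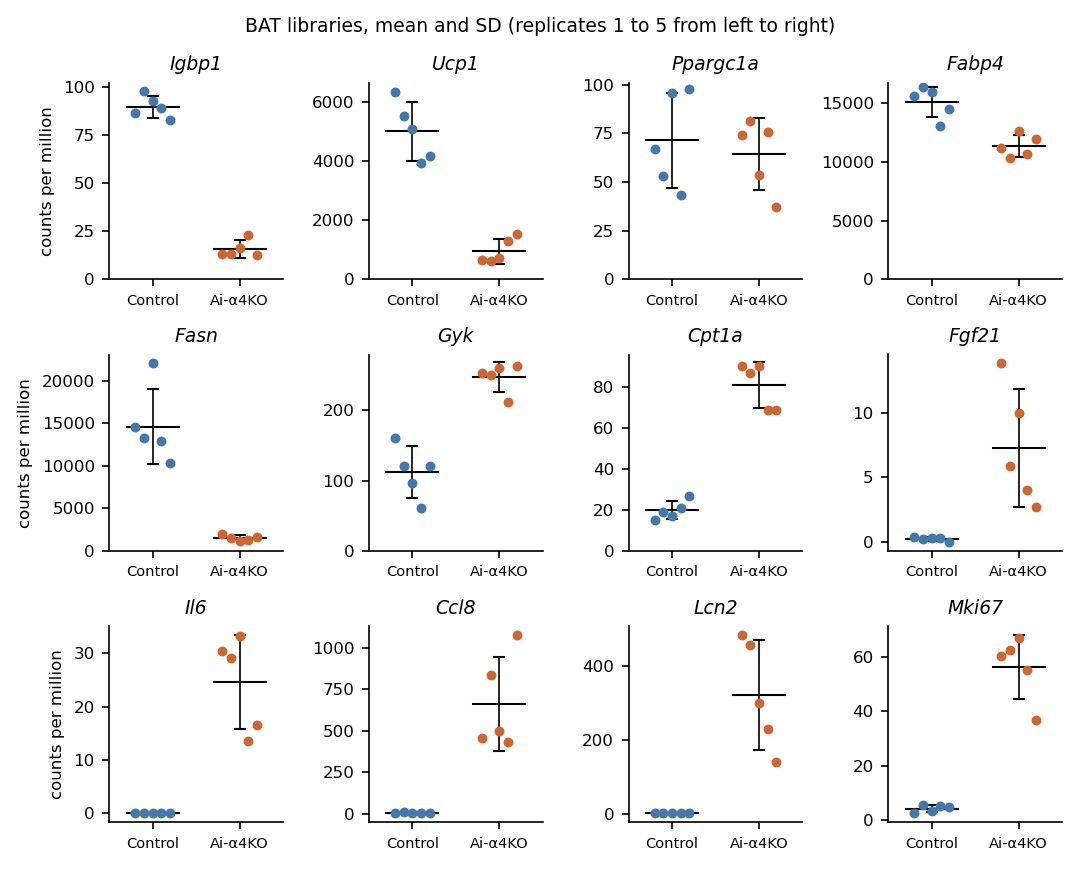
Level of 12 genes in each BAT library in CPM (linear axes, each from 0), with points for replicates 1 to 5 of Control and Ai-α4KO from left to right, a bar at the mean and an error bar of 1 SD. Ppargc1a overlaps between the groups, Ucp1 and Fasn lie lower in every Ai-α4KO library, and Gyk, Cpt1a, Fgf21, Il6, Ccl8, Lcn2 and Mki67 lie higher in every Ai-α4KO library.

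General adipocyte genes fell with the brown ones. Of 15 adipocyte markers 12 fell, none rose and the median log2 fold change was -1.64. Adipoq was at 2165, 2081, 2082, 2276 and 2268 CPM in Control and at 766, 411, 445, 418 and 416 CPM in Ai-α4KO, where replicate 1 stood above the other 4. It fell by 2.15 on the log2 scale (± 0.19 SE, adjusted p = 1.5e-06). Fabp4, the fatty acid binding protein that was the most abundant transcript of both groups (19111 FPKM in Control and 17325 FPKM in Ai-α4KO), behaved differently. Its level was 15567, 16352, 15959, 13096 and 14506 CPM in Control and 11219, 10322, 12625, 10707 and 11937 CPM in Ai-α4KO. Although the groups did not overlap, the log2 fold change was only -0.41 ± 0.14 SE and missed the threshold (adjusted p = 0.019). Leptin (Lep, -1.25) and resistin (Retn, 0.53) did not pass either.

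Among 27 regulators of adipocyte transcription, 14 fell and 2 rose, against 13.3% lower and 18.2% higher over all genes. Pparg, encoding the master regulator of fat cell identity PPARγ, was at 376, 417, 392, 354 and 371 CPM in Control and at 159.8, 120.0, 110.4, 119 and 106 CPM in Ai-α4KO. The groups lay far apart, with a log2 fold change of -1.63 ± 0.13 SE, adjusted p = 6.6e-07. Its partner Cebpa (-1.84), Ppara, the sensor of fatty acids (-2.55), Irf4 (-2.29) and Mlxipl, which encodes the glucose-sensing factor ChREBP (-2.04), also fell on the log2 scale. Cebpd, an early factor of fat cell differentiation and of the acute phase response, rose by 1.53, and Esrrb rose by 1.46. Tfam, which packages mitochondrial DNA, had a log2 fold change of -0.53 and Nrf1 of -0.09, neither past the threshold.

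The adrenergic pathway was lower at several levels. Of its 21 tested genes 12 fell and 2 rose, with a median of -1.32. The β3 receptor gene Adrb3 was at 236, 353, 235, 175 and 146 CPM in Control and at 146, 65.5, 75.9, 96.3 and 73.4 CPM in Ai-α4KO. The lowest Control library and the highest Ai-α4KO library nearly met, and the log2 fold change was -1.32 ± 0.27 SE (adjusted p = 0.001). Gnas, which encodes the stimulatory G protein subunit that links the receptor to adenylyl cyclase, went from 2893, 2080.1, 2070.5, 2109 and 2230.4 CPM to 483, 417, 724, 708 and 721 CPM. Control replicate 1 was the highest and Ai-α4KO replicate 2 the lowest, and Gnas fell by 1.90 on the log2 scale (± 0.19 SE, adjusted p = 4.3e-06). Prkar2b, the regulatory subunit of protein kinase A that predominates in fat, fell from 1845, 2274, 2102, 1593 and 2037 CPM to 356, 225, 370.4, 326 and 369 CPM. That was a log2 fold change of -2.58 ± 0.17 SE, adjusted p = 1.9e-07. The kinase's catalytic subunit gene Prkaca (-1.19) and the phosphodiesterase gene Pde3b, through which insulin lowers cAMP (-2.09), fell by less.

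The opposing receptor moved the other way. Adra2a, an α2 receptor that inhibits adenylyl cyclase, was at 0.130, 0.437, 0.131, 0.508 and 0.0385 CPM in Control and at 1.19, 2.42, 5.70, 2.53 and 3.74 CPM in Ai-α4KO. It rose without overlap from a very low level, with a log2 fold change of 3.57 ± 0.58 SE, adjusted p = 2.0e-04. The phosphodiesterase Pde4b, which is also an immune cell gene, rose by 1.90. The β1 receptor gene Adrb1 (-0.74) did not pass the threshold.

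**Figure D3:**
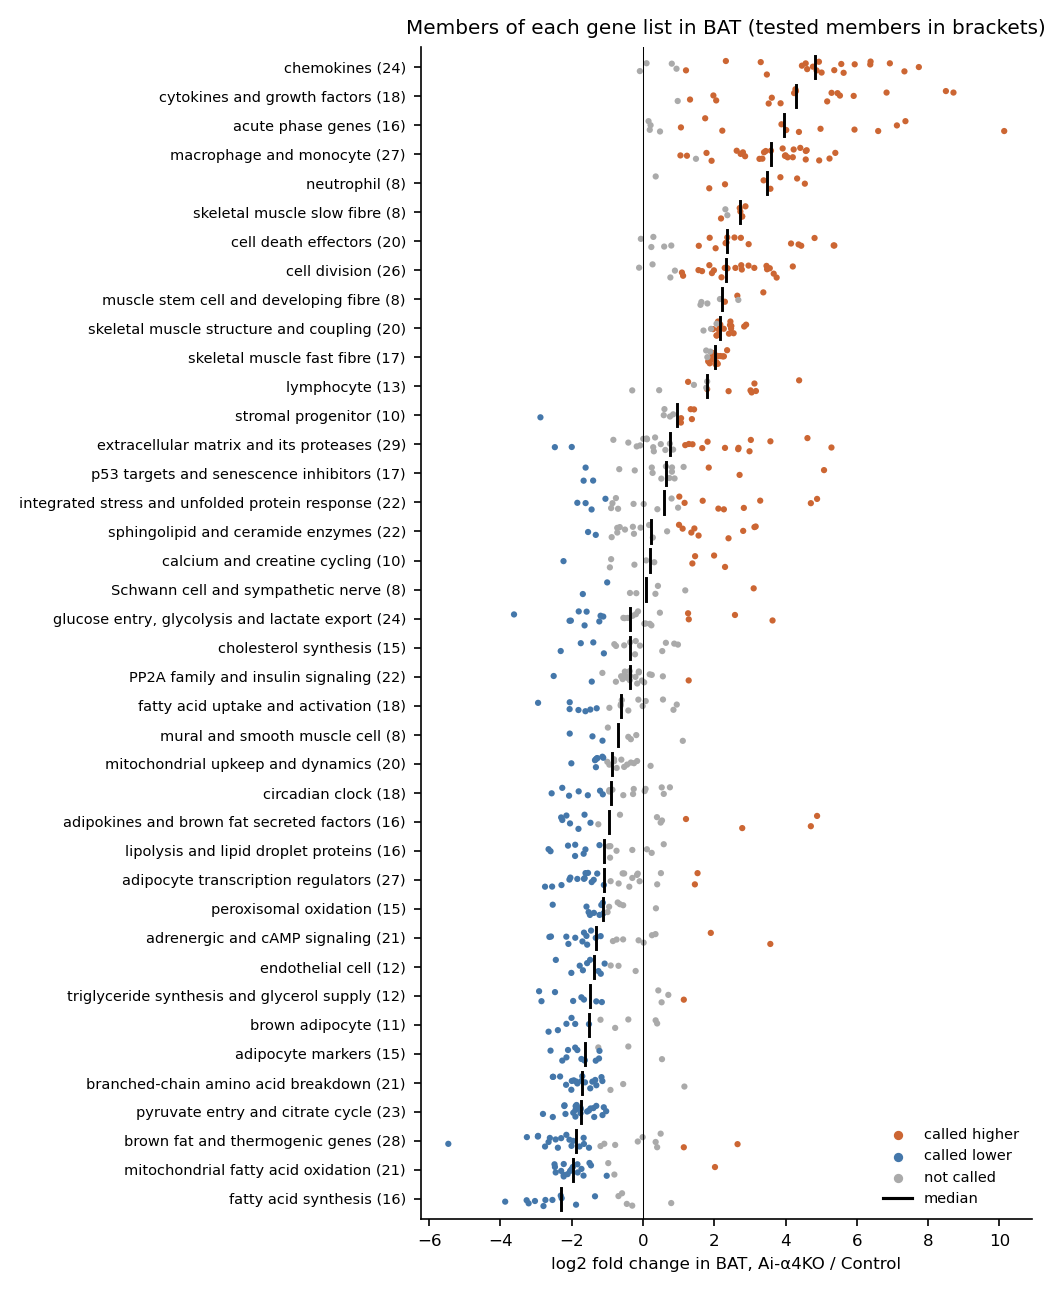
Log2 fold change in BAT of each tested member of each gene list with at least 6 tested members (tested members in brackets), with a black bar at the list's median. The median of fatty acid synthesis lies at -2.29, and those of the chemokine, cytokine and macrophage lists lie right of 0, up to 4.82.

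Enzymes that make and store fat fell strongly. Of 16 genes of fatty acid synthesis 11 fell and none rose, with the lowest median of any list, -2.29. Fasn, the fatty acid synthase, was at 14528, 13316, 22059, 12926 and 10306 CPM in Control libraries and at 1949.8, 1530.1, 1186, 1335 and 1619.6 CPM in Ai-α4KO libraries. No Ai-α4KO library came near the lowest Control library, and Fasn fell by 3.26 on the log2 scale (± 0.23 SE, adjusted p = 3.3e-07). Thrsp, a lipogenic gene induced by thyroid hormone and carbohydrate, went from 4536, 3895, 4693, 2999.9 and 2478 CPM to 228, 139, 216, 263 and 432 CPM. Its log2 fold change of -3.86 ± 0.31 SE, adjusted p = 7.7e-07, was the lowest in the list. Acly (-3.03), Acaca (-3.21) and Acss2 (-2.74), which supply and carboxylate acetyl-CoA, fell to a similar degree. Scd1, the desaturase that makes oleate, was at 12722, 19152, 42099, 10743 and 37143 CPM in Control and at 6480.5, 10064, 10601, 11538 and 9293 CPM in Ai-α4KO. The Control libraries were widely spread and overlapped the Ai-α4KO group, and Scd1 fell with a log2 fold change of -1.34 ± 0.37 SE, adjusted p = 0.007. It missed the threshold without Control replicate 3 or 5 and without any 1 of the Ai-α4KO libraries, at log2 fold changes of -1.38 to -1.06. Fads1, which makes polyunsaturated fatty acids, had a log2 fold change of 0.79 and did not pass.

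Among 12 genes of triglyceride synthesis and glycerol supply, 8 fell and 1 rose. Gpd1, which makes glycerol 3-phosphate from glucose, was at 8107, 6606, 9164, 6665 and 7639 CPM in Control and at 923, 945, 884, 1126 and 1431 CPM in Ai-α4KO. It fell by 2.85 on the log2 scale (± 0.18 SE, adjusted p = 1.5e-07). Pck1, which makes it from lactate and amino acids, fell by 2.91, and Dgat2, which closes triglyceride synthesis, by 2.47. Gyk, the glycerol kinase that makes the same product from free glycerol, went the other way, from 161, 120.1, 96.5, 60.5 and 121 CPM to 253, 251, 261, 211 and 263 CPM. Every Ai-α4KO library lay above every Control library, with a log2 fold change of 1.15 ± 0.21 SE, adjusted p = 5.2e-04. Without Control replicate 4, the lowest of its group, the log2 fold change was 0.98, just under 2-fold.

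The lipolytic enzymes fell too. Pnpla2, which encodes the triglyceride lipase ATGL, was at 2533, 1731, 2538, 2782 and 2976 CPM in Control and at 530.4, 381, 342, 418 and 411 CPM in Ai-α4KO. Its groups were widely separated, with a log2 fold change of -2.59 ± 0.18 SE, adjusted p = 2.6e-07. Hormone-sensitive lipase (Lipe) fell by 2.10, monoglyceride lipase (Mgll) by 1.61 and perilipin 1 (Plin1) by 1.90. Of the 16 genes of lipolysis and the lipid droplet 8 fell and none rose. Perilipin 2 (Plin2), the droplet coat protein found in most cell types, had a log2 fold change of 0.25 and lysosomal acid lipase (Lipa) of 0.11, neither past the threshold.

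For uptake and activation of fatty acids, 7 of 18 genes fell and none rose. Acsl5, an acyl-CoA synthetase, was at 966, 729, 1235, 606 and 431 CPM in Control and at 173, 180.5, 202, 186 and 213 CPM in Ai-α4KO. It fell by 2.05 on the log2 scale (± 0.24 SE, adjusted p = 1.7e-05). The related Acsl4, which prefers arachidonate, had a log2 fold change of 0.86, just short of the 2-fold requirement. Fabp5, the fatty acid binding protein shared by adipocytes and macrophages, was at 172, 206, 208, 185 and 181 CPM in Control and at 402, 514, 312, 219.6 and 388 CPM in Ai-α4KO. All Ai-α4KO libraries were higher, but its log2 fold change of 0.95 ± 0.19 SE also stayed under 2-fold (adjusted p = 0.0011), and reached it without Ai-α4KO replicate 3 (1.001) or 4 (1.14).

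Fatty acid oxidation fell nearly throughout. Of 21 mitochondrial genes 18 fell and 1 rose, with a median of -1.97. Acadvl, the dehydrogenase of very long chains, was at 3793, 3038, 3934, 3686 and 3999 CPM in Control and at 583, 571, 701, 926 and 979 CPM in Ai-α4KO. The fall was 2.29 on the log2 scale (± 0.19 SE, adjusted p = 8.1e-07), and Acadm, for medium chains, fell by 2.11. Carnitine palmitoyltransferase 1 carries fatty acids into mitochondria and is made in 2 forms by the genes in this list. The muscle and brown fat form Cpt1b fell by 2.004. The form of liver and most other tissues, Cpt1a, was at 15.3, 18.9, 17.3, 21.02 and 27.0 CPM in Control and at 90.0, 86.6, 90.1, 68.7 and 68.8 CPM in Ai-α4KO. Cpt1a rose without overlap, with a log2 fold change of 2.02 ± 0.16 SE, adjusted p = 7.4e-07. Of 15 genes of peroxisomal oxidation 9 fell and none rose, with a median of -1.12, and 5 fell without TMM factors.

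All 23 genes of pyruvate entry and the citrate cycle fell, against 13.3% lower over all genes. The median log2 fold change of the list was -1.75. The smallest fall in the list was that of Mpc2, a subunit of the mitochondrial pyruvate carrier, by 1.03, which was under 2-fold without Control replicate 3 (-0.99) or Ai-α4KO replicate 1 (-0.90) or 2 (-0.89). Of 21 genes for the breakdown of branched-chain amino acids, a fuel that brown fat takes up in the cold, 18 fell and none rose, or 1 without Ai-α4KO replicate 3 or 4. Aldh6a1, which finishes valine breakdown, was at 1195, 1377, 1321, 1353 and 1249.8 CPM in Control and at 242, 167, 250.5, 254 and 221 CPM in Ai-α4KO. It fell by 2.52 on the log2 scale (± 0.14 SE, adjusted p = 7.2e-08). Among 20 genes of mitochondrial upkeep 8 fell and none rose, with Clpp, a matrix protease subunit, lowest at -2.01 and fission gene Dnm1l at -0.25 without a call.

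Of 24 genes for glucose use 9 fell and 4 rose, the latter near the 18.2% higher over all genes. Slc2a1, which encodes the constitutive glucose transporter GLUT1, was at 10.9, 6.44, 8.30, 10.7 and 8.90 CPM in Control and at 23.1, 25.6, 20.6, 17.0 and 24.0 CPM in Ai-α4KO. It rose without overlap, with a log2 fold change of 1.29 ± 0.17 SE, adjusted p = 4.2e-05, while Pfkl (-2.02) and Eno1 (-1.80) fell and Gapdh (-0.43) and Ldha (-0.14) did not pass. Hk3, a hexokinase of myeloid cells, rose by 3.64, and Slc16a3, a lactate exporter, rose by 2.58. The fourth gene that rose, Pfkm, is the phosphofructokinase subunit of muscle. It was at 154, 267, 309, 286 and 375 CPM in Control and at 308, 403, 648, 1302 and 685 CPM in Ai-α4KO, and overlapped, with a log2 fold change of 1.27 ± 0.36 SE, adjusted p = 0.0081. Its order within Ai-α4KO, with replicate 4 highest and replicates 1 and 2 lowest, was that of the fast fibre genes. Pfkm missed the threshold without any 1 of Control replicates 1 to 4 or Ai-α4KO replicates 3 to 5, at 0.92 to 1.30.

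Sphingolipid genes rose more often than they fell. Of 22 tested 9 rose and 2 fell, against 18.2% higher and 13.3% lower over all genes, so the count that fell was not above the background. Cers6, a ceramide synthase that makes C16 ceramide, was at 0.781, 1.64, 1.31, 2.37 and 1.503 CPM in Control and at 14.97, 19.02, 7.23, 7.32 and 5.20 CPM in Ai-α4KO. Every Ai-α4KO library was higher, with replicates 1 and 2 highest, with a log2 fold change of 2.81 ± 0.40 SE, adjusted p = 7.4e-05. Ugcg, which adds the glucose of glucosylceramide, rose by 1.44, B4galt6, a lactosylceramide synthase, by 3.16, and sphingosine kinase 1 (Sphk1) by 3.13. Cers2, which makes ceramides of very long chains, had a log2 fold change of -0.65 and did not pass. Of 15 tested cholesterol synthesis genes 4 fell and none rose, against 13.3% lower and 18.2% higher over all genes. Fdft1 (-2.31) led the falls. The count that rose was 1 without any 1 of Control replicates 1, 3 and 5 or Ai-α4KO replicate 1, and 2 without Ai-α4KO replicate 4.

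Calcium and creatine cycling, routes of heat production that need no UCP1, included genes shared with muscle. Of 10 tested 4 rose and 1 fell, against 18.2% higher and 13.3% lower over all genes. The count that rose was 2 with the mean log2 level of fast fibre genes as a covariate. Without Control replicate 2 or 3 the count that fell was 2. Ckmt2, the mitochondrial creatine kinase of muscle and brown fat, was at 17.0, 236, 151, 124 and 175 CPM in Control and at 254, 263, 477, 1064 and 746 CPM in Ai-α4KO. Its groups did not overlap, but the lowest Control library was replicate 1, which also held the least fast fibre RNA, and Ckmt2 rose with a log2 fold change of 1.996 ± 0.58 SE, adjusted p = 0.0098. Without any 1 of Control replicates 2 to 5 or Ai-α4KO replicates 3 to 5 it missed the threshold, at 1.67 to 2.26. Atp2a2, the calcium pump of slow muscle and other tissues, rose by 1.46, and Gatm and Gamt, which make creatine, rose by 2.30 and 1.39. Pm20d1, an enzyme secreted by fat cells, fell by 2.23.

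Among secreted factors of the tissue the count that rose was near the share over all genes. Of 16 adipokines and brown fat factors 7 fell and 4 rose, against 13.3% lower and 18.2% higher over all genes. With at least 10 counts required in every library 2 rose. With Control replicate 1 and Ai-α4KO replicates 3, 4 and 5 left out together 4 fell. Fgf21, a stress-induced hormone that acts on metabolism, was at 0.390, 0.255, 0.306, 0.271 and 0 CPM in Control, with no count in replicate 5, and at 13.8, 5.86, 9.95, 3.99 and 2.72 CPM in Ai-α4KO. The groups did not overlap, with a log2 fold change of 4.89 ± 0.61 SE, adjusted p = 2.6e-05. Gdf15, a stress cytokine that curbs appetite, was at 0.521, 0.109, 0.0874, 2.40 and 1.85 CPM in Control and at 44.5, 34.7, 16.9, 15.4 and 22.0 CPM in Ai-α4KO. The rise had a log2 fold change of 4.71 ± 0.69 SE, adjusted p = 9.2e-05. Metrnl, a factor of fat and muscle, went from 5.60, 5.97, 5.07, 9.44 and 6.74 CPM to 40.9, 41.7, 46.8, 42.6 and 54.9 CPM. Its Ai-α4KO libraries were tightly grouped, with a log2 fold change of 2.79 ± 0.18 SE, adjusted p = 1.5e-07. On the other side, Cfd, encoding adipsin, fell by 2.26, Nrg4, a brown fat factor that acts on liver, by 2.29, and Vegfa, which maintains vessels, by 1.64.

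Clock genes fell or did not pass. Of 18 tested 7 fell and none rose, against 13.3% lower over all genes, and 4 fell without TMM factors. Per2, a repressor in the clock loop, was at 59.2, 38.5, 32.4, 41.5 and 69.1 CPM in Control and at 10.1, 10.3, 7.87, 17.6 and 4.21 CPM in Ai-α4KO. It fell by 2.26 on the log2 scale (± 0.33 SE, adjusted p = 9.8e-05), and Hlf, of its output, and Ciart, another repressor, fell by 2.56 and 2.07. Ciart lost the call without any 1 of Control replicates 1, 3 and 5 or Ai-α4KO replicates 1, 2, 3 and 5, at -2.06 to -1.86, and in one fit of all 20 libraries. The activators Arntl (0.76) and Clock (-0.26) did not pass. The hour of collection is not given in the sources used here, and its part in these values was not tested.

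The phosphatase partners of α4 changed little as transcripts. The 22 genes of the PP2A family and insulin signalling, Igbp1 among them, held 1 that rose, Ptpn1, which encodes the tyrosine phosphatase PTP1B (1.28), and 1 besides Igbp1 that fell, the insulin-pathway kinase gene Akt2 (-1.44). The catalytic subunit genes had log2 fold changes of -0.12 for Ppp2ca, -0.03 for Ppp2cb, 0.19 for Ppp4c and 0.25 for Ppp6c, none past the threshold. The scaffold subunit Ppp2r1a was at 209.6 CPM in Control and 147 CPM in Ai-α4KO and did not reach 2-fold.

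Of 22 genes of the integrated stress and unfolded protein responses, 9 rose and 4 fell, against 18.2% higher and 13.3% lower over all genes, so the count that fell is near the background. Atf3, a transcription factor induced by many stresses, was at 8.98, 6.62, 1.57, 4.47 and 4.39 CPM in Control and at 50.9, 35.6, 42.1, 58.8 and 67.4 CPM in Ai-α4KO. It rose clear of all Control libraries, with a log2 fold change of 3.29 ± 0.37 SE, adjusted p = 1.0e-05. Mthfd2, of mitochondrial folate metabolism, rose by 2.27 and Sdf2l1, of the endoplasmic reticulum, by 2.83, while the central factor Atf4 had a log2 fold change of 0.80 and Asns, the asparagine synthetase it controls, of -0.89, both short of 2-fold. Ddit4, an inhibitor of mTORC1, was at 100.4, 50.1, 92.8, 45.1 and 59.7 CPM in Control and at 19.6, 32.5, 24.0, 6.01 and 14.9 CPM in Ai-α4KO. It fell by 1.84 on the log2 scale (± 0.38 SE, adjusted p = 0.0012), and Sesn2 fell by 1.61 and Trib3 by 1.44. Ddit4, Sesn2 and Trib3 each lost the call with the fast fibre level as a covariate, and again with the 4 libraries that stood apart in fast fibre genes left out.

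Among 17 tested genes in a list of p53 targets and senescence inhibitors, 3 rose and 3 fell, near the shares over all genes of 18.2% higher and 13.3% lower. The count that rose was 8 without TMM factors and 5 without Control replicate 4. Pmaip1, which encodes the death-promoting protein NOXA, was at 0.781, 0.982, 0.437, 0.981 and 0.771 CPM in Control and at 24.5, 28.7, 25.6, 15.8 and 41.1 CPM in Ai-α4KO. The rise left no overlap, with a log2 fold change of 5.08 ± 0.30 SE, adjusted p = 9.7e-08. Cdkn1a, the cell cycle inhibitor p21 and the best known target, was at 394, 168, 204, 278 and 159 CPM in Control and at 270.4, 248, 202, 106 and 199 CPM in Ai-α4KO. These groups overlapped, with a log2 fold change of -0.23 ± 0.29 SE, adjusted p = 0.5.

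Cell death effectors rose as a group, 15 of 20 with none lower and a median of 2.36, against 18.2% higher over all genes. Casp4, the caspase that senses bacterial lipopolysaccharide, was at 1.26, 1.93, 1.18, 2.71 and 1.77 CPM in Control and at 56.0, 50.1, 60.2, 33.8 and 51.8 CPM in Ai-α4KO. Casp4 had a log2 fold change of 4.81 ± 0.25 SE, adjusted p = 5.8e-08. Zbp1, a nucleic acid sensor that starts necroptosis, went from 1.48, 1.67, 1.44, 4.13 and 4.35 CPM to 68.5, 44.5, 71.4, 40.0 and 47.5 CPM. It rose with a log2 fold change of 4.37 ± 0.36 SE, adjusted p = 9.6e-07, and its downstream effector Mlkl rose by 2.57 and Ripk3 by 2.32. Bcl2a1b and Bcl2a1d also rose, but they are near-identical copies whose reads the counting could have split. Many of these genes are also expressed by macrophages, whose markers rose in the same libraries.

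Cell division genes rose in 22 of 26 cases, against 18.2% higher over all genes, none fell and the median was 2.32. Mki67, the proliferation antigen, was at 2.34, 5.42, 3.15, 5.04 and 4.89 CPM in Control and at 60.2, 62.6, 67.2, 55.1 and 36.9 CPM in Ai-α4KO. It rose in every Ai-α4KO library, with a log2 fold change of 3.75 ± 0.25 SE, adjusted p = 2.0e-07. Top2a rose by 3.48, Cdk1 by 3.56 and the replication helicase gene Mcm5 by 1.86, while the G1 cyclin gene Ccne1 had a log2 fold change of 0.27. Which cells divide cannot be told from whole tissue.

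Among lists with at least 6 tested members, chemokines and cytokines had the highest medians, although the largest rise of a single gene was that of the acute phase gene Saa2. Of 24 chemokines tested 20 rose and none fell, with a median log2 fold change of 4.82. Of 18 cytokines and growth factors 17 rose, with a median of 4.29, and of 16 acute phase genes 12 rose, with a median of 3.95. These compare with 18.2% higher over all genes. With at least 10 counts required in every library, many of these genes are not tested because their Control counts are near 0, and the numbers higher were 12 for chemokines and 8 for cytokines.

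Promoters of 5 of these genes are shown, chosen after the search described beneath them, as an illustration of the letters of 2 of the motifs searched. They run from 250 bases before to 50 after the start site, from RefSeq on GRCm38.p6, 5′ to 3′ on the gene's strand. Capitals mark matches, on either strand, to the NF-κB type motif of 10 bases in the first 3, and to TTGCNNAA, the C/EBP type, in the last 2. Il6 also holds TTGCNNAA, which is not marked. They lie at chr5:90890995-90891294 (Cxcl1, plus strand), chr5:90903649-90903948 (Cxcl2, plus), chr5:30012864-30013163 (Il6, plus), chr7:46715627-46715926 (Saa3, minus) and chr2:32387690-32387989 (Lcn2, minus).
Cxcl1: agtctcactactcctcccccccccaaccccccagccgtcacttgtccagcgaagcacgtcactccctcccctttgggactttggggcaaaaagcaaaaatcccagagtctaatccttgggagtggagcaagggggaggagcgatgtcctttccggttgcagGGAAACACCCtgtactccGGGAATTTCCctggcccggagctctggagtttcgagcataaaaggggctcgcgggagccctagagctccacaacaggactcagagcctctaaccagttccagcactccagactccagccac
Cxcl2: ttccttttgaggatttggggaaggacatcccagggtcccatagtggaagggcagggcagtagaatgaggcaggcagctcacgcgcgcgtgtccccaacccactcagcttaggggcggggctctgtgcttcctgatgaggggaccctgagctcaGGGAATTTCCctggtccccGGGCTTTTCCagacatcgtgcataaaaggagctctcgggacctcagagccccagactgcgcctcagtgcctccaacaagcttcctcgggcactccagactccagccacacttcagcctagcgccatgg
Il6: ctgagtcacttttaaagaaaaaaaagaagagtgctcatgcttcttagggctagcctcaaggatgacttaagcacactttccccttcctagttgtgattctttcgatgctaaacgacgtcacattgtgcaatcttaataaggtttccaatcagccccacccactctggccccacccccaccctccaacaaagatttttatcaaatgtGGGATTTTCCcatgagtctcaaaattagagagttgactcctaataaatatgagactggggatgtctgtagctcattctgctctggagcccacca
Saa3: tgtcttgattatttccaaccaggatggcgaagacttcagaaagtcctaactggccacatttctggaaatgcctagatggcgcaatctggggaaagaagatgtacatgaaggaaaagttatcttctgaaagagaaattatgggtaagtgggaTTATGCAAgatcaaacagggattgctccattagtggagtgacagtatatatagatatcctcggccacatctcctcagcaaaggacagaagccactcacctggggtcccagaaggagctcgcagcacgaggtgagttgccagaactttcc
Lcn2: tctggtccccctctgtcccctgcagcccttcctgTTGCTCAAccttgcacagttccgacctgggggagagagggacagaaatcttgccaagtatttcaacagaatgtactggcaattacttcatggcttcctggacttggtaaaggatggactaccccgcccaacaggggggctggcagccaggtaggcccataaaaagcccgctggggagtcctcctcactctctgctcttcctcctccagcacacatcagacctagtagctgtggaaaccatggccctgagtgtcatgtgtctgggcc

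The matches begin at -89 and -71 from the start of Cxcl1, at -97 and -78 in Cxcl2, at -44 in Il6, at -99 in Saa3 and at -216 in Lcn2. The NF-κB type motif was in 5 of 18 chemokine promoters (27.8%), 4 of 21 cytokine promoters (19%), which belong to 16 genes with the 4 matches in Csf1, Il1rn and Il6, and 3 of 15 acute phase promoters (20%) of 14 genes, against 1.63% of all 32851 promoters of this length. The 5 chemokines were Ccl9, Ccl20, Cxcl1, Cxcl2 and Cxcl3, of which Ccl20 had 0 counts over the Control and 35 over the Ai-α4KO libraries. All shares count list members whether or not they rose. TTGCNNAA was in 9 of 15 acute phase promoters (60.0%), those of Saa1, Saa2, Saa3, Lcn2, Orm2, Steap4, Ptx3, C3 and Cp, against 10.8% of all, 23.8% of cytokine, 11.1% of chemokine and 21.4% of fast fibre gene promoters. C3 was among them although its level did not pass the threshold (0.19 on the log2 scale). In all 17 motifs were searched on both strands. Those of 10 or more letters were 3 forms of the NF-κB type, the PPAR direct repeat, the interferon response element, MEF2 and the CArG box. The shorter ones were GGAANTTCC of the NF-κB type, TGACGTCA of the cAMP response, the E-boxes CACGTG and CANNTG, TTCNNNGAA for STAT, TTGCGCAA and TTGCNNAA for C/EBP, TGANTCA for AP-1, TCAAGGTCA for ERR and TCACNCCAC for the sterol response. The NF-κB forms overlap one another, TTGCGCAA is a case of TTGCNNAA and CACGTG a case of CANNTG. For the NF-κB type, the narrower, short and palindromic forms were in 3, 5 and 4 chemokine promoters and in 2, 0 and 0 cytokine promoters, and each in 0 acute phase promoters. AP-1 was in 23.8% of cytokine promoters against 7.81% of all, the interferon response element in 11.1% of chemokine promoters against 3.44%, and the STAT motif in 20% of acute phase promoters against 8.3%. The AP-1 matches included Il11, which had 27 counts over the Control and 20 over the Ai-α4KO libraries. A match describes the letters and is not evidence that a factor binds.

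The neutrophil and monocyte attractants rose from traces. Cxcl1 was at 1.56, 0.146, 0.306, 0.508 and 0.308 CPM in Control and at 125, 123, 167, 65.2 and 113 CPM in Ai-α4KO. Control replicate 1 held the most of its group, far below any Ai-α4KO library, and Cxcl1 had a log2 fold change of 7.74 ± 0.50 SE, adjusted p = 1.7e-07. Cxcl2 was at 1.26, 0.655, 0.175, 0.338 and 0.694 CPM in Control and at 36.6, 38.97, 61.2, 19.1 and 35.4 CPM in Ai-α4KO. The gene had a log2 fold change of 5.94 ± 0.44 SE, adjusted p = 4.3e-07. Ccl2, the main attractant of CCR2-bearing monocytes, was at 3.73, 1.35, 0.699, 1.42 and 1.079 CPM in Control and at 212, 179, 289, 138 and 185 CPM in Ai-α4KO. Control replicate 1 was again the highest of its group and far from any Ai-α4KO library, with a log2 fold change of 6.93 ± 0.43 SE, adjusted p = 1.2e-07. Ccl8, a relative of Ccl2 made largely by macrophages, was at 4.99, 7.57, 1.75, 4.74 and 1.31 CPM in Control and at 459, 837, 498, 431 and 1078 CPM in Ai-α4KO. It had a log2 fold change of 7.34 ± 0.55 SE, adjusted p = 4.3e-07. Ccl11, the eosinophil attractant (-0.09), and Cxcl9, an interferon-γ target (0.10), did not pass.

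Among cytokines Il6 stood out. Il6 was at 0.130, 0, 0.0437, 0.0677 and 0.0385 CPM in Control, from 7 counts over the 5 libraries, and at 30.5, 29.1, 33.1, 13.6 and 16.6 CPM in Ai-α4KO, from 4184 counts. The fitted log2 fold change of 8.71 ± 0.46 SE (adjusted p = 5.8e-08) depends on the prior count at so low a Control level. Il1b, the inflammasome product, was at 2.52, 1.02, 1.18, 1.35 and 0.809 CPM in Control and at 57.7, 61.3, 63.4, 52.7 and 80.6 CPM in Ai-α4KO. It rose in every Ai-α4KO library, with a log2 fold change of 5.53 ± 0.28 SE, adjusted p = 5.8e-08, and its antagonist Il1rn rose by 5.29. Il33, an alarmin of stromal cells that feeds regulatory T cells in fat, was at 3.90, 10.7, 4.11, 8.66 and 6.67 CPM in Control and at 91.0, 101, 65.5, 66.6 and 70.4 CPM in Ai-α4KO. Il33 rose with a log2 fold change of 3.53 ± 0.28 SE, adjusted p = 7.8e-07. The growth factor gene Nrg1 had no count in any Control library and a mean of 1.499 CPM in Ai-α4KO, at least 12.8-fold above the level that 3 counts in each Control library would give.

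Acute phase proteins, better known from liver, were prominent. Saa3, the serum amyloid A gene of fat and macrophages, was at 19.9, 3.09, 5.64, 2.57 and 1.97 CPM in Control and at 796, 876, 880.0, 245 and 397 CPM in Ai-α4KO. Control replicate 1 was above its group and Ai-α4KO replicates 4 and 5 were lowest in theirs, with a log2 fold change of 6.60 ± 0.74 SE, adjusted p = 1.1e-05. Lcn2, an iron-binding lipocalin, was at 3.38, 2.69, 1.49, 1.86 and 2.08 CPM in Control and at 483, 456, 298, 228 and 139.6 CPM in Ai-α4KO. Its rise was clear in all 5 libraries, with a log2 fold change of 7.12 ± 0.41 SE, adjusted p = 9.3e-08. Serpina3n, a protease inhibitor, was at 12.9, 9.79, 8.74, 19.3 and 24.2 CPM in Control and at 425, 567, 254, 135 and 176 CPM in Ai-α4KO. Replicates 1 and 2 again held the most in Ai-α4KO, with a log2 fold change of 4.38 ± 0.45 SE, adjusted p = 5.6e-06. Saa2 had no count in Control and 5.85, 7.70, 5.02, 1.81 and 3.11 CPM in Ai-α4KO, at least 40.0-fold above the level of 3 counts in each Control library. Saa1 and Saa2 are close copies, and the split of reads between them is uncertain. Haptoglobin (Hp), one of the 10 most abundant transcripts of Ai-α4KO BAT at 4191 FPKM, was already at 1032 FPKM in Control and rose by 1.75 on the log2 scale.

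Of 29 genes of the extracellular matrix and its proteases tested, 13 rose and 2 fell, against 18.2% higher and 13.3% lower over all genes. Timp1, an inhibitor of matrix proteases, was at 3.47, 1.53, 2.05, 1.56 and 1.19 CPM in Control and at 84.0, 93.6, 52.0, 51.1 and 99.9 CPM in Ai-α4KO. Timp1 had a log2 fold change of 5.29 ± 0.33 SE, adjusted p = 1.2e-07. The related Timp3 went from 639, 606, 423, 588 and 578 CPM to 122, 133, 159, 166 and 129.9 CPM. It fell by 1.997 on the log2 scale (± 0.15 SE, adjusted p = 3.6e-07), as did Timp4 by 2.47, so members of the TIMP family moved in opposite directions, as they did under each scaling tried. Fn1, fibronectin, rose from 52.7, 80.2, 69.7, 148 and 71.0 CPM to 381, 603, 419.7, 610.2 and 675 CPM. It had a log2 fold change of 2.67 ± 0.28 SE, adjusted p = 6.1e-06. Mmp12, the macrophage elastase, rose by 4.61, and Col3a1 by 1.66, while Col1a1 (0.76), Col4a1 (0.10) and Col6a1 (0.31) did not pass.

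Most tested markers of macrophages and neutrophils were higher. Of 27 macrophage and monocyte markers 26 rose and none fell, and their summed level was 388 to 881 CPM in Control and 5989 to 9679 CPM in Ai-α4KO. Lyz2, lysozyme, was at 135, 193, 120.4, 271 and 134 CPM in Control and at 2653, 4009, 2793, 2660.4 and 3892 CPM in Ai-α4KO. Lyz2 had a log2 fold change of 4.23 ± 0.27 SE, adjusted p = 1.5e-07. Ccr2, the receptor for Ccl2 on recruited monocytes, was at 7.94, 18.2, 10.49, 26.2 and 9.90 CPM in Control and at 301, 251, 558, 309 and 339 CPM in Ai-α4KO. Replicate 3 of Ai-α4KO held the most, and Ccr2 had a log2 fold change of 4.59 ± 0.37 SE, adjusted p = 7.6e-07. Trem2, a lipid receptor of macrophages in obese fat, was at 0.824, 0.655, 0.918, 0.948 and 0.809 CPM in Control and at 20.7, 31.4, 18.9, 19.03 and 38.4 CPM in Ai-α4KO. Trem2 rose with a log2 fold change of 4.94 ± 0.26 SE, adjusted p = 5.8e-08. The resident macrophage markers Mrc1 (3.999), Folr2 (2.80) and Lyve1 (1.78) rose on the log2 scale as well, and Timd4 (1.49) did not pass. It passed by DESeq2 (1.53), without TMM factors (1.73), at an adjusted p below 0.05 and without Ai-α4KO replicate 2 (1.65). The part of these cells in the rises of chemokine, cytokine, cell death and cell division genes in the same libraries was not tested.

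Neutrophil markers rose in 7 of 8 tested, and the summed level of the list was 14.7 to 41.5 CPM in Control and 198 to 380.2 CPM in Ai-α4KO. S100a8, a calprotectin subunit, was at 7.202, 4.66, 11.1, 5.65 and 3.20 CPM in Control and at 73.3, 86.5, 122, 62.7 and 115 CPM in Ai-α4KO. It had a log2 fold change of 3.86 ± 0.33 SE, adjusted p = 1.1e-06. Camp, Ngp, Elane and Mpo, the granule genes made in marrow, had too few counts to test. Lymphocyte markers rose in 8 of 13, from a summed 5.03 to 10.3 CPM to 23.1 to 78.8 CPM, a small share of the RNA, and the count was 3 with at least 10 counts required in every library, 3 by limma and 5 in one fit of all 20 libraries. Cd4, carried by helper T cells and by some macrophages, was at 0.954, 0.910, 0.699, 1.083 and 1.04 CPM in Control and at 11.3, 33.6, 10.48, 9.10 and 33.9 CPM in Ai-α4KO. Replicates 2 and 5 were highest in Ai-α4KO, with a log2 fold change of 4.38 ± 0.45 SE, adjusted p = 5.0e-06. The B cell genes Ms4a1 (0.46) and Cd79a (-0.30) did not pass, and the summed level of 6 lymph node genes was 0.830 to 7.42 CPM in Control and 2.27 to 20.4 CPM in Ai-α4KO.

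Vessel markers were lower. Of 12 endothelial genes 9 fell and none rose, with a median of -1.37, and 5 fell without TMM factors or with the fast fibre level as a covariate. Kdr, the main receptor for VEGF, was at 231, 164, 178, 197 and 203 CPM in Control and at 45.6, 26.9, 25.6, 38.5 and 42.2 CPM in Ai-α4KO. It fell by 2.44 on the log2 scale (± 0.18 SE, adjusted p = 4.3e-07). Flt1, the decoy receptor, was at 92.9, 88.0, 79.5, 94.9 and 94.0 CPM in Control and at 26.8, 30.6, 25.7, 26.7 and 21.6 CPM in Ai-α4KO. Flt1 fell by 1.77 (± 0.11 SE, adjusted p = 1.4e-07), while Pecam1 (-0.90) and Vwf (-0.21) did not pass. Rgs5, a pericyte gene, was at 150.4, 198, 193, 182 and 199.9 CPM in Control and at 48.3, 49.3, 38.5, 53.3 and 33.3 CPM in Ai-α4KO. Rgs5 fell by 2.05 (± 0.15 SE, adjusted p = 3.4e-07). In all 3 of 8 mural and smooth muscle genes fell, against 13.3% lower over all genes, with Acta2 (-0.34) and Tagln (-0.19) not past the threshold.

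Stromal progenitor markers rose in 5 of 10 tested and fell in 1, against 18.2% higher and 13.3% lower over all genes. The count that rose was 3 without Control replicate 1 and 2 with the fast fibre level as a covariate. Ly6a, which encodes SCA-1, was at 135, 117, 86.9, 129.5 and 163 CPM in Control and at 322, 332, 342, 306 and 296 CPM in Ai-α4KO. No libraries of the groups overlapped, with a log2 fold change of 1.34 ± 0.15 SE, adjusted p = 1.2e-05. Pdgfra, the receptor that marks the progenitors most widely, had a log2 fold change of 0.58 and did not pass, and Dlk1, a preadipocyte gene, fell by 2.88, a call lost with that covariate. Of 8 Schwann cell and nerve genes tested 2 fell and 1 rose, against 13.3% lower and 18.2% higher over all genes. Only 1 fell without Control replicate 1 or 2 or any 1 of Ai-α4KO replicates 1 to 4. By DESeq2 1 fell and 2 rose, and 2 rose without Ai-α4KO replicate 2. The 1 that rose, Th, the rate-limiting enzyme of noradrenaline synthesis, went from 0.109 CPM to 0.980 CPM, and Sox10 (-0.19) did not pass. Of 6 epithelial genes only Cdh1 had counts enough to test, and it rose by 4.70.

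Skeletal muscle genes were treated apart from the rest. Brown fat between the shoulder blades lies on muscle, and a fragment of muscle brings very abundant transcripts of contractile proteins. Of 45 genes in 3 lists of fibre genes 37 rose and none fell, 14 of 17 fast fibre genes, 6 of 8 slow fibre genes and 17 of 20 genes of structure and excitation coupling. Of 8 tested genes of muscle stem cells and developing fibres 3 rose, against 7 by DESeq2 and 5 without Ai-α4KO replicate 2, and all 3 lost the call in one fit of all 20 libraries and with the fast fibre level as a covariate. The summed level of the 17 fast fibre genes was 1374, 12595, 7932, 7492 and 13744 CPM in Control and 18176, 20570.1, 34844, 61761 and 35448 CPM in Ai-α4KO. Control replicate 1 held far less than any other library, and Ai-α4KO replicates 3, 4 and 5 far more. Summed over all 45 fibre genes, the level was 1787 to 18619 CPM in Control and 25005 to 91825 CPM in Ai-α4KO.

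**Figure D4:**
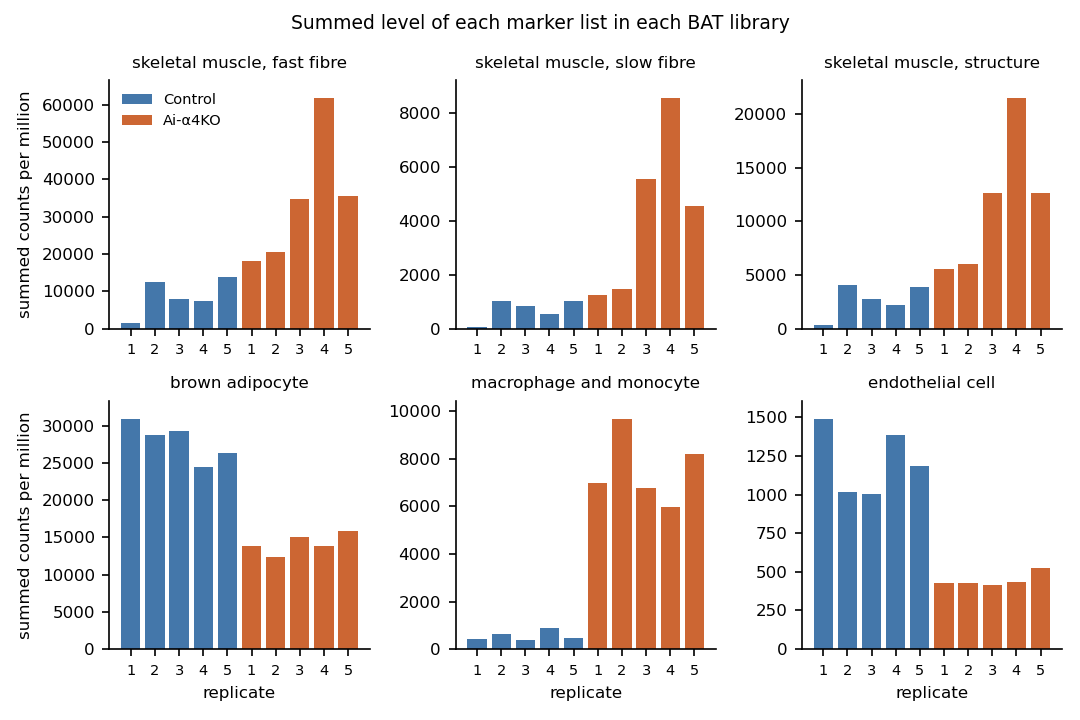
Summed level in CPM of 6 marker lists in each BAT library (bars from 0, replicates 1 to 5 of Control and then of Ai-α4KO). Fast fibre genes range from 1374 CPM in Control replicate 1 to 61761 CPM in Ai-α4KO replicate 4, macrophage genes from 5989 to 9679 CPM in Ai-α4KO, and the brown adipocyte and endothelial sums are lower in every Ai-α4KO library than in any Control library.

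Acta1, Mylpf, Ckm, Myl2 and Myh7 were each lowest in Control replicate 1 and highest in Ai-α4KO replicate 4, while the order of the other libraries varied by gene. Acta1, skeletal α-actin, was at 176, 1625, 1047, 1023 and 1989 CPM in Control and at 2178, 2874, 5071, 7359 and 5024 CPM in Ai-α4KO. Its highest Control and lowest Ai-α4KO libraries nearly met, with a log2 fold change of 1.94 ± 0.52 SE, adjusted p = 0.0062. Mylpf, a fast myosin light chain, was at 153, 1390.3, 818, 761 and 1034 CPM in Control and at 1500.1, 1743, 3083, 6489.6 and 4529 CPM in Ai-α4KO. Its Ai-α4KO libraries were widely spread, with a log2 fold change of 2.06 ± 0.53 SE, adjusted p = 0.005. Ckm, muscle creatine kinase, was at 125, 1053, 696, 688 and 1093 CPM in Control and at 1421, 1699, 2510.0, 4769 and 2591 CPM in Ai-α4KO. Ckm had a log2 fold change of 1.83 ± 0.49 SE, adjusted p = 0.0063. Myl2, a slow and cardiac light chain, was at 11.3, 350.3, 239, 179.7 and 254 CPM in Control and at 315, 399, 1616, 3130.2 and 1656 CPM in Ai-α4KO. Its groups overlapped, with a log2 fold change of 2.78 ± 0.79 SE, adjusted p = 0.0085. Myh7, the slow myosin heavy chain, was at 8.94, 207, 254, 125 and 356 CPM in Control and at 418, 436, 1433, 1799 and 823 CPM in Ai-α4KO. It did not overlap and yet missed the threshold, with a log2 fold change of 2.37 ± 0.72 SE, adjusted p = 0.012, and passed without Control replicate 1 (2.05). Acta1, Mylpf, Ckm and Myl2 each lost the call without Control replicate 3, Control replicate 4, Ai-α4KO replicate 4 or Ai-α4KO replicate 5, left out 1 at a time, at 1.54 to 2.83. Without Ai-α4KO replicate 3 the call was lost for Acta1 (1.89), Ckm (1.84) and Myl2 (2.73), without Control replicate 2 for Acta1 (2.08) and Myl2 (3.05), and without Control replicate 5 for Myl2 (2.86). The myosin heavy chain genes are near-identical over long stretches, so their split is uncertain.

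The largest log2 fold change of the muscle lists was that of Chrna1. Chrna1, the acetylcholine receptor subunit that spreads over a fibre when its nerve is cut, was at 0.260, 2.04, 2.05, 1.90 and 4.78 CPM in Control and at 7.39, 14.98, 38.6, 30.01 and 24.4 CPM in Ai-α4KO. It had a log2 fold change of 3.38 ± 0.58 SE, adjusted p = 3.2e-04. Xirp1, a protein of damaged and remodelling fibres, was at 0.998, 6.91, 6.21, 5.25 and 9.94 CPM in Control and at 18.5, 19.7, 55.2, 69.9 and 47.3 CPM in Ai-α4KO. Xirp1 had a log2 fold change of 2.84 ± 0.52 SE, adjusted p = 5.1e-04. Myoglobin (Mb), an oxygen store of slow fibres, was at 52.5, 812, 491, 373 and 413 CPM in Control and at 542, 559, 1536, 2862 and 2539 CPM in Ai-α4KO. Mb overlapped and did not pass, with a log2 fold change of 1.91 ± 0.63 SE, adjusted p = 0.02. With the mean log2 level of the fast fibre genes as a covariate, which is made from some of these genes, 0 of the 45 genes were called higher by edgeR (3 at an unadjusted p below 0.05). In a fit of all 20 libraries 0 were called higher by edgeR (14 at an unadjusted p below 0.05), and DESeq2 on the BAT libraries called 43. Leaving out single libraries gave 15 to 42, with 15 without Control replicate 3 or replicate 4, 16 without Ai-α4KO replicate 4, 17 without replicate 3, 19 without replicate 5 and 42 without Control replicate 1. Whether the muscle RNA came from fragments taken with the fat was not tested.

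Outside the muscle lists, 2574 of 14291 tested genes rose and 1910 fell. Over all genes, with the muscle genes removed before scaling, 2700 rose and 1771 fell. Without Control replicate 1 and Ai-α4KO replicates 3, 4 and 5, the libraries that stood apart in fast fibre genes, 2302 rose and 1822 fell, and 76.5% and 79.2% of the calls were kept. With the fast fibre level as a covariate 1685 rose and 1572 fell, 61.4% of the rising and 73.4% of the falling calls were kept, and 84 calls changed direction. Fast fibre level and genotype cannot be told apart fully in this fit, since in summed fast fibre genes every Ai-α4KO library lay above every Control library. Of the genes named above outside the 45 fibre genes, Adra2a, Adrb3, Atp2a2, Cfd, Chrna1, Ciart, Ddit4, Dlk1, Esrrb, Lhx8, Lyve1, Mpc2, Pde4b, Pfkm, Sesn2, Th and Trib3 lost their call in it, and Ckmt2 turned sign. Those that lost it with the 4 libraries left out were Adrb3, Atp2a2, Cfd, Ckmt2, Ddit4, Dlk1, Esrrb, Lhx8, Pfkm, Scd1, Sesn2, Th and Trib3. Without TMM factors Acsl4, Atf4, Col1a1, Fabp5, Fads1, Mb, Myh7 and Timd4 of the genes named above passed as higher, and Lhx8, Mpc2, Prkaca and Scd1 no longer as lower.

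Beyond the lists, the 5 largest falls and rises and the 10 largest at 50 CPM or more were named by rule. Cyp2b10, a cytochrome P450 of drug metabolism, was at 195, 84.7, 154, 177 and 42.9 CPM in Control and at 2.15, 1.20, 2.45, 0.506 and 1.13 CPM in Ai-α4KO. It had the lowest value of any called gene, a log2 fold change of -6.47 ± 0.52 SE, adjusted p = 8.1e-07. Impdh1, which makes guanine nucleotides, was at 381, 298, 389, 589.5 and 555 CPM in Control and at 38.3, 32.4, 21.8, 19.7 and 26.7 CPM in Ai-α4KO. It fell by 3.99 on the log2 scale (± 0.25 SE, adjusted p = 1.5e-07). Others that fell were Tmem45b, from 621 to 37.9 CPM, Acsm3, an acyl-CoA synthetase of medium chains, from 261 to 8.80 CPM, the chloride channel Ano1, from 77.1 to 6.12 CPM, Sorcs2, a sorting receptor, from 107 to 7.27 CPM, and the non-coding A530050N04Rik, from 60.7 to 3.003 CPM. Slc2a5, a fructose transporter, fell by 3.62. Olig1, Gabra2 and Ttc36 fell from Control means of 1.73, 0.708 and 2.13 CPM to levels at or near 0.

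Itih4, an inter-α-trypsin inhibitor heavy chain known from liver, was at 1.56, 0.837, 2.10, 2.23 and 2.12 CPM in Control and at 162, 252, 229.7, 209 and 267 CPM in Ai-α4KO. Its Ai-α4KO libraries were close together and its rise had a log2 fold change of 6.98 ± 0.28 SE, adjusted p = 3.1e-08. Slc7a11, the cystine importer that feeds glutathione synthesis, was at 1.26, 0.327, 0.262, 0.406 and 0.539 CPM in Control and at 87.0, 78.4, 39.5, 32.0 and 28.6 CPM in Ai-α4KO. It rose with a log2 fold change of 6.58 ± 0.49 SE, adjusted p = 4.5e-07. Clec4n, a fungal receptor of macrophages, rose from 1.74 to 198 CPM, Irg1, which makes itaconate in activated macrophages, from 0.885 to 99.3 CPM, and Gsta1, a glutathione transferase, from 0.0979 to 19.2 CPM.

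The ranking of abundant transcripts changed. In FPKM, the 10 leading genes of Control BAT were Fabp4, Car3, Scd1, Atp5b, Ndufa4, Cfd, Gpx3, Thrsp, Cox6b1 and Cox6c. In Ai-α4KO BAT they were Fabp4, Tmsb4x, Mylpf, Hp, Tpt1, Lyz2, Tnnc2, B2m, Ftl1 and Acta1, of which Mylpf, Tnnc2 and Acta1 are muscle genes. Thrsp went from 2903 to 239 FPKM, Car3, carbonic anhydrase 3, from 4936 to 2532 FPKM, Tmsb4x, an actin-binding peptide of motile cells, from 878 to 4618 FPKM, and Lyz2 from 132 to 2974 FPKM.

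The responses of BAT and iWAT were set against each other by the interaction term of a model holding all 20 libraries, which takes them as independent. The labels do not say whether BAT and iWAT came from the same mice. The genotype difference differed between the tissues for 740 of 15230 genes, 4.86%, the log2 fold change being higher in BAT for 496 and lower for 244. Leaving out 1 BAT library gave 474 to 746 genes. Among the listed genes outside muscle with a value in both tissues, 47 passed and 556 did not. Muscle genes are left out of this count, and iWAT libraries too stood apart in them: Mylpf was at 979.95 CPM in Control replicate 4 and 716 CPM in Ai-α4KO replicate 1, against 0.363 to 20.7 CPM in the other iWAT libraries. Igbp1 did not, with a difference of 0.17 ± 0.19 SE (adjusted p = 0.56). Ucp1 fell less in BAT than in iWAT, by a difference of 4.21 ± 0.99 SE (adjusted p = 0.0088), from log2 fold changes of -2.39 and -6.57. In the same fit its mean level was 166 CPM in Control iWAT and 1.75 CPM in Ai-α4KO iWAT. Ppargc1a did not pass in BAT, whereas its iWAT log2 fold change was -1.998, a difference of 1.89 ± 0.36 SE (adjusted p = 0.0027). Cox7a1 differed by 2.44 in the same direction. Gnas fell more in BAT, by -1.24 ± 0.21 SE (adjusted p = 0.0012), and Acsl5 fell in BAT and not in iWAT, where its log2 fold change was 0.46 (difference -2.48 ± 0.29 SE, adjusted p = 9.9e-05).

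**Figure D5:**
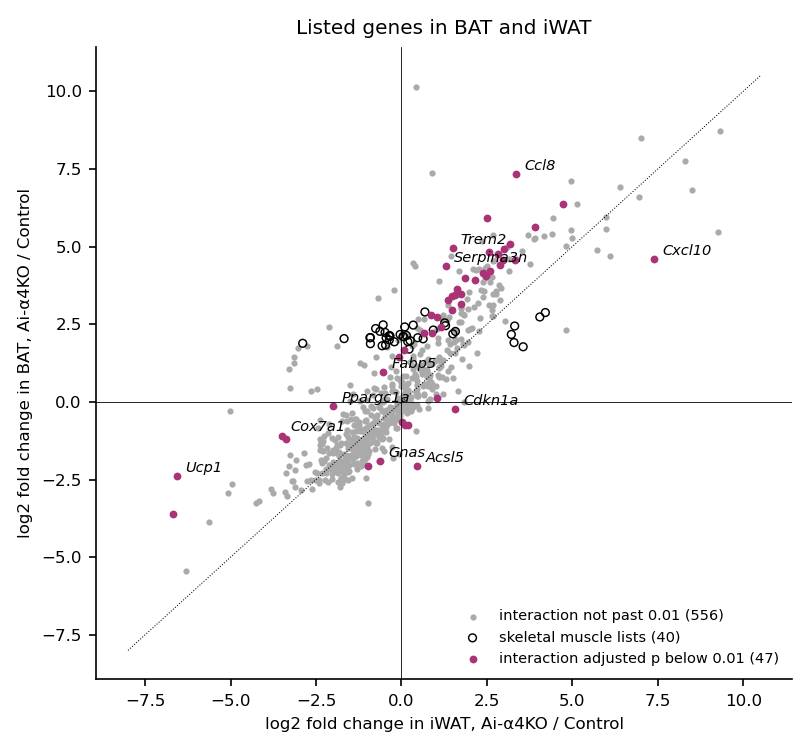
Log2 fold change in BAT (vertical) against that in iWAT (horizontal), Ai-α4KO over Control, for 643 listed genes with both values. The dotted line marks equal change, 47 filled points are genes outside muscle past an interaction adjusted p of 0.01, and rings are the 40 muscle genes. Ucp1 lies above the line at -2.39 in BAT and -6.57 in iWAT, and Acsl5 lies below it at -2.05 and 0.46.

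Macrophage genes stood out in the interaction, and their Control levels differed between the tissues. Of 27 macrophage markers 13 passed the interaction threshold and all 13 had the larger rise in BAT. Lyz2 was at a mean of 179 CPM in Control BAT and 820.0 CPM in Control iWAT, and at 3433 and 4914 CPM in Ai-α4KO (difference of log2 fold changes 1.68 ± 0.29 SE, adjusted p = 0.0013). Trem2 differed by 3.49 ± 0.73 SE (adjusted p = 0.0045), from 0.869 to 27.5 CPM in BAT and from 5.84 to 16.6 CPM in iWAT. Ccl8 differed by 4.01 ± 0.62 SE (adjusted p = 6.5e-04), again from a lower Control level in BAT, 4.30 against 85.0 CPM. Cxcl10, an interferon target, rose less in BAT, by -2.75 ± 0.61 SE (adjusted p = 0.0063). Itih4 showed the largest difference of any gene, 7.17 ± 0.77 SE (adjusted p = 3.9e-05), and its iWAT level was 5.49 CPM in Control and 4.93 CPM in Ai-α4KO. Next to it were F2, Cd22, Pld5 and Ltb, of which Cd22 and Ltb are B cell genes that were at 13.3 and 27.2 CPM in Control iWAT. At the other end, 1700040L02Rik (-3.60), Otof (-3.30), Impdh1 (-3.10), Rnf152 (-3.001) and Ninl (-2.87) had the lowest differences.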

How the data were processed

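Stranded mRNA libraries of BAT, 5 from Control and 5 from Ai-α4KO, were sequenced with paired reads of 150 bases. The submitters' processing notes name bcl2fastq 2, STAR 2.5.3a and the mm10 build, and the counting tool, its strand setting and the annotation release are not given in the sources used here. For 25219 genes the authors deposited expected counts by library, not normalized, of which 76.6% of the nonzero values were whole. FPKM values were deposited by the authors beside them. The table holds 0 genes of the mitochondrial chromosome. All 40 columns of the series' count and FPKM values were used, and the sequence of the promoters came from RefSeq on GRCm38.p6.

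After rounding, expected counts went into edgeR 4.0.16 under R 4.3.3: filterByExpr with its default settings, TMM factors, and glmQLFit on the 10 BAT libraries without covariates, with quasi-likelihood tests, Benjamini-Hochberg adjusted, called at 0.01 and 2-fold. CPM values by library used no prior count, and log2 values for the principal components a prior count of 2. Tissues were compared by the genotype-by-tissue interaction in 1 model of all 20 libraries. Igbp1 was also compared by an exact permutation test. Bounds against groups at 0 used a floor of 3 counts in each library and cover counting error only. In data simulated on the BAT libraries (14468 genes), 63% of genes changed by 2-fold and 100% of those changed by 4-fold were found, with 1 unchanged gene past the threshold, and for the interaction (15211 genes) 2% and 75%, with 0 unchanged. Each simulation changed 200 genes, drew all genes at 1 common dispersion and took a gene as found by adjusted p alone. Genes are named if they are Igbp1, members of 42 lists, the 10 of highest mean FPKM in each group, the 5 largest and smallest log2 fold changes among called genes, the 10 in each direction with a group mean of at least 50 CPM, or the 5 largest interactions each way. Some listed genes are not reported here. The members and lists were chosen with earlier results of these data known. Alternatives were the DESeq2 1.42.0 Wald test, other normalizations and filters, limma 3.58.1 on log2(FPKM + 1) with at least 1 FPKM in 5 libraries, an adjusted p of 0.05, fits of all libraries, without muscle genes or with the mean log2 CPM of fast fibre genes as a covariate, a replicate block and leaving out libraries.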

Additional observations from a re-analysis of the deposited data

Results flagged for a closer look

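Of 188 groups of 5 libraries examined, 13 had a highest or lowest library far from the others by Dixon's test, where chance flags about 1 in 20 groups. In Control, replicate 1 was apart in 5 genes. It held Gnas at 2893 CPM (the others at 2070.5 to 2230.5), Ccl2 at 3.73 CPM (0.699 to 1.42), Cxcl1 at 1.56 CPM (0.146 to 0.508), Saa3 at 19.9 CPM (1.97 to 5.64) and Slc7a11 at 1.26 CPM (0.262 to 0.539). Control replicate 4 held Fn1 at 148 CPM (52.7 to 80.2) and Control replicate 3 held Timp3 at 423 CPM (578 to 639). In Ai-α4KO, replicate 5 held Cidea at 849.6 CPM (397 to 498) and an endothelial marker sum of 524 CPM (415 to 436), and replicate 1 held Adipoq at 766 CPM (411 to 445) and Pparg at 159.8 CPM (106 to 120.0). Ai-α4KO replicate 4 held Gyk at 211 CPM (251 to 263) and replicate 3 held Ccr2 at 558 CPM (251 to 339).

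The log2 fold change differed between BAT and iWAT, by the interaction test at an adjusted p below 0.01, for 15 of the 77 genes whose values are given by library. It was higher in BAT for Casp4 (2.28), Ccl8 (4.01), Fabp5 (1.51), Itih4 (7.17), Lyz2 (1.68), Pmaip1 (1.93), Ppargc1a (1.89), Serpina3n (3.12), Trem2 (3.49) and Ucp1 (4.21). It was lower in BAT for Acsl5 (-2.48), Cdkn1a (-1.76), Gnas (-1.24), Impdh1 (-3.10) and Rgs5 (-1.03).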

How the results depend on the processing

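The number of genes higher in Ai-α4KO BAT, 2614, stayed within 1.5 times except with the mean log2 level of fast fibre genes as a covariate, where it was 1685, and leaving out 1 library gave 2414 to 2634. The number lower, 1910, was 1265 with library size without TMM factors and 805 by limma on log2(FPKM + 1), where 71.6% of calls were higher and the median gene had moved up by 0.2497, and leaving out 1 library gave 1812 to 1968. Igbp1 kept its direction and call in every alternative run, at -2.64 to -2.44 when 1 library was left out. Skeletal muscle fibre genes higher, 37, were 0 in edgeR with the covariate (3 at an unadjusted p below 0.05) and 0 in one fit of all 20 libraries (14), against 43 by DESeq2, and 15 to 42 when 1 library was left out (15 without Control replicate 3 or 4, 16, 17 and 19 without Ai-α4KO replicates 4, 3 and 5). Some of these genes make up the covariate, and every Ai-α4KO library lay above every Control library in summed fast fibre genes. Lost calls and turned signs of fibre genes in that fit were therefore largely set in advance. The causes of the other changes were not tested. The BAT and iWAT interaction, 740 genes, gave 2297 at an adjusted p below 0.05 and 1648 by DESeq2, and 474 to 746 when 1 library was left out, with 474 without Control replicate 3 and 486 without Control replicate 1. With the covariate the sign turned for Acta1 (-0.0741), Actn3 (-0.0813), Cacna1s (-0.136), Casq1 (-0.160), Ckm (-0.0994), Ckmt2 (-0.360), Mybpc1 (-0.185), Myh2 (-0.144), Myl2 (-0.635), Mylpf (-0.0289), Myot (-0.1997), Myoz2 (-0.365), Neb (-0.204), Pvalb (-0.137), Ryr1 (-0.0742), Tnnc1 (-0.465), Tnni1 (-0.617), Tnnt1 (-0.192), Trdn (-0.2497), Ttn (-0.00635) and Xirp2 (-0.106). Over 690 genes followed through the alternatives, 14136 values kept direction and call, 588 lost the call, 268 gained it and 21 turned sign. The replicate numbers are shared between the groups, but same-numbered libraries did not deviate together (correlations of -0.193 to 0.258 over the 5 numbers, and 1 of 5 Control libraries correlated best with its own number), so they were not taken as pairs. With a replicate block 2509 genes rose and 1834 fell, and 94.2% and 94.6% of the calls were kept. The set without Control replicate 1 and Ai-α4KO replicates 3, 4 and 5 was chosen after seeing the data and gave 2302 higher and 1822 lower.

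At 24023371 to 34274184 counts a library, genes with Control counts near 0, such as Il6 (7 counts over the 5 libraries) and Csf2 (3 counts), have fitted rises that depend on the prior count. Genes under the count filter were not tested. Of simulated 2-fold differences in the interaction 2% were found, so most differences of that size between the tissues would not have been seen.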

Other observations

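The second component of the log2 CPM values, with 7.54% of the variance, did not follow the genotype. Control replicate 1 (37.9) and Ai-α4KO replicates 1 and 2 (35.1 and 37.4) were at its positive end, Control replicate 4 was at 3.31, and Control replicates 2, 3 and 5 (-19.9, -14.0 and -12.9) and Ai-α4KO replicates 3, 4 and 5 (-16.1, -40.7 and -9.97) were at its negative end. In each group the libraries at the positive end held the least summed fast fibre RNA, 1374 CPM in Control replicate 1 and 18176.5 and 20570.1 CPM in Ai-α4KO replicates 1 and 2. The most negative library of Ai-α4KO held the most of its group, 61761 CPM. In Control the most negative, replicate 2, held 12595 CPM, less than the 13744 CPM of replicate 5.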
